A study of Mus musculus with 6 samples.

Results

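MHC class I antigen presentation was followed in wildtype mouse embryonic fibroblasts (MEFs) before and after TNFα. The 10 genes described are *H2-K1*, *H2-D1*, *B2m*, *Tap1*, *Tap2*, *Tapbp*, *Psmb8*, *Psmb9*, *Psmb10* and *Nlrc5*. They were chosen by name for their part in the pathway, and all 10 are among the 21837 gene symbols of the RNA-seq table. Class I molecules show peptides from the inside of a cell to CD8+ T cells. The proteasome cuts proteins into peptides, the TAP transporter moves them into the endoplasmic reticulum, and there they are loaded onto a heavy chain paired with β2-microglobulin. Most cells carry some class I, and the pathway is well known to be raised by interferons and by NF-κB, the transcription factor that TNFα activates.

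The cells were primary MEFs of a mixed C57BL/6x 129 background, taken from littermate embryos at day 13.5 and passaged 4 times. They were left untreated or given 20 ng/ml of TNFα for 1.5, 6 or 24 hr, with 1 RNA-seq library per time. The labels call the cells wildtype and name no deletion or transgene. Untreated cells of the same kind gave 1 H3K4me3 ChIP-seq library and 1 input library.

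With 1 library per time there is no replicate check and no p-value, and differences between times compare 4 libraries. Levels are given in RPKM, a read count divided by the length of the transcript and by the size of the library, so that genes can be set side by side. Each library has a pair of columns, R1 and R2, whose content is not stated in the sources used here. Their mean was taken as the level, and both columns are given as the lower and upper value of that library. For a call, a gene needed an average RPKM above 1 and a level that differed at least 2-fold from that before treatment. Of the 10 members, 8 had an average RPKM above 1, and *Psmb9* and *Nlrc5* did not.

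The libraries differed as a whole. Among the 6542 coding genes with an average RPKM above 1, the log2 ratio to untreated cells had a median of 0.46 after 1.5 hr, of -0.74 after 6 hr and of 0.11 after 24 hr. The 6 hr library was the low one, with 87.4% of these genes below their untreated level. Log2 ratios are therefore given as deposited and also relative to this median. The number of reads behind a single level was not recovered from the RPKM values.

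At 1.5 hr, 4 of the 8 members that passed the filter were at least 2-fold higher, namely *H2-K1*, *H2-D1*, *B2m* and *Psmb8*, against 29.9% of all coding genes. At 24 hr the same 4 genes were at least 2-fold higher, against 16.8% of coding genes. At 6 hr *H2-K1* alone was, against 1.74% of coding genes. No member that passed the filter was at least 2-fold lower at any time, while this held for 7.80% of coding genes after 1.5 hr, 31.6% after 6 hr and 12.6% after 24 hr. Relative to the median of coding genes, 3 of 8 members (*H2-K1*, *H2-D1* and *B2m*) were at least 2-fold higher at 1.5 hr, against 15.6% of coding genes. On that scale 3 of 8 (*H2-K1*, *Psmb8* and *Psmb10*) were higher at 6 hr, against 7.15%, and 4 of 8 were higher at 24 hr, against 14.1%. A gene can pass the filter on the average through the treated libraries alone. The same 8 members had an RPKM above 1 in untreated cells, where no treated value enters, and of the 6177 coding genes above 1 there, 21.8% were at least 2-fold higher after 1.5 hr, 0.971% after 6 hr and 11% after 24 hr. These shares over 8 genes are a description and were not tested.

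**Figure D1:**
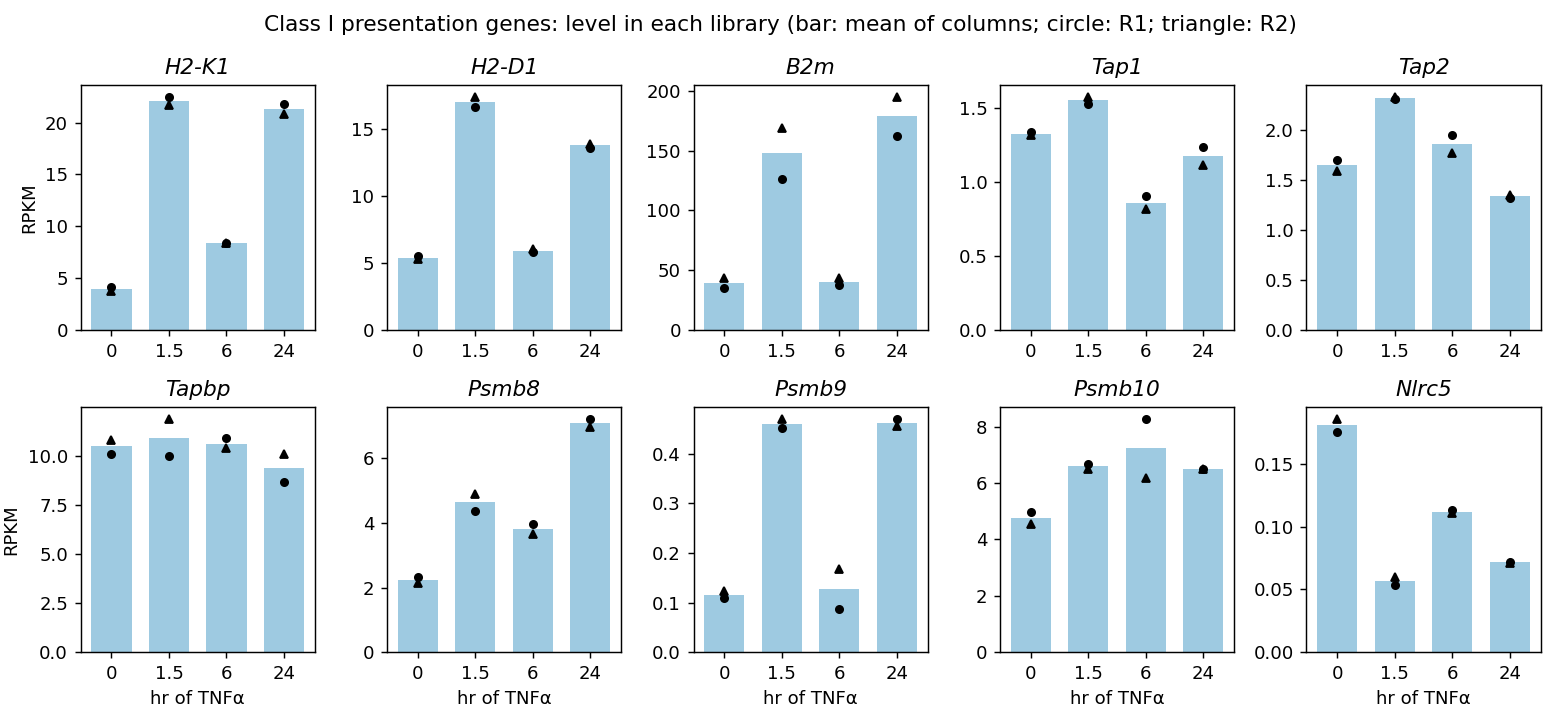
Level of each of the 10 members in RPKM (linear axis, from 0) in the untreated library and at 1.5, 6 and 24 hr of TNFα. Bars are the mean of both columns, circles R1 and triangles R2. *B2m*, *H2-K1*, *H2-D1* and *Psmb9* are high at 1.5 and 24 hr and near or closer to the untreated level at 6 hr, *Psmb8* is highest at 24 hr at 7.11 RPKM, *Tapbp* stays between 9.39 and 10.9 RPKM, and *Nlrc5* is highest in the untreated library at 0.181 RPKM.

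The classical heavy chains bind the peptide and are what the T cell receptor contacts. *H2-K1* (mm9, chr17:34132962-34137278, minus strand) was at 3.99 RPKM in untreated cells, 22.1 RPKM at 1.5 hr, 8.40 RPKM at 6 hr and 21.3 RPKM at 24 hr. The R1 and R2 columns ran from 3.79 to 4.18 RPKM, from 21.7 to 22.5, from 8.39 to 8.41 and from 20.8 to 21.8 in the same order. All 3 treated libraries were above the untreated one in both columns, by 5.55-fold, 2.11-fold and 5.34-fold. Of the 10 members *H2-K1* had the largest log2 ratio at each time, and it stood at place 106 after 1.5 hr, 104 after 6 hr and 58 after 24 hr among the 6542 coding genes.

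*H2-D1* (chr17:35399675-35404444, plus strand), the other classical heavy chain, was at 5.38 RPKM in untreated cells, 17 RPKM at 1.5 hr, 5.93 RPKM at 6 hr and 13.8 RPKM at 24 hr. It was thus 3.16-fold higher at 1.5 hr and 2.56-fold higher at 24 hr, while at 6 hr the ratio was 1.1. The columns at 6 hr, 5.83 and 6.04 RPKM, lay above both untreated columns, 5.27 and 5.49 RPKM, by a small margin. The order of the heavy chains turned over. *H2-K1* was at 0.741 times the level of *H2-D1* in untreated cells and at 1.30, 1.42 and 1.55 times at 1.5, 6 and 24 hr. This ratio is taken within a library, so no scaling of libraries enters it, and in each library both columns fell on the same side of 1.

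*B2m* (chr2:121973422-121978819, plus strand) encodes β2-microglobulin, the light chain that every class I heavy chain needs to reach the cell surface. It was the most abundant member in every library, at 39.4 RPKM in untreated cells, 148 RPKM at 1.5 hr, 40.5 RPKM at 6 hr and 179 RPKM at 24 hr. The columns were 35.6 and 43.3 RPKM in untreated cells and 37.4 and 43.7 RPKM at 6 hr, so these libraries overlapped, while 126 and 169 RPKM at 1.5 hr and 162 and 195 RPKM at 24 hr lay far above them. The fold to untreated was 3.75 after 1.5 hr, 1.03 after 6 hr and 4.53 after 24 hr. Among coding genes the log2 ratio of *B2m* stood at percentile 93.8, 88.6 and 98.7 at these times. *B2m* kept well above the summed level of *H2-K1* and *H2-D1*, by 4.21 times in untreated cells and by 3.78, 2.83 and 5.10 times in the treated libraries in order of time. R1 and R2 gave 2.63 and 3.03 for this ratio at 6 hr and 3.68 and 4.77 in untreated cells, which do not overlap. The ratios at 1.5 hr (3.22 and 4.33) and 24 hr (4.58 and 5.62) do overlap those of untreated cells.

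Class I promoters are known for binding sites of NF-κB and of interferon regulatory factors close to the start, and the sequence there can be read from the genome. The 250 bases upstream of each RefSeq start were searched on both strands for a broad κB motif, GGGNNNNNCC, for a narrower form of it, GGGNNTTNCC, and for an interferon response motif, GAAANNGAAA. Of 32851 RefSeq promoters of that length, 45.8% hold the broad motif, 4.11% the narrower one and 2.98% the interferon response motif. Of the 10 members 8 are in the RefSeq promoter table, *Tap2* and *Nlrc5* not being among them, and each of these windows matched mm9 exactly once. The narrower κB motif was found in the windows of *H2-K1*, *H2-D1* and *B2m*, and the interferon response motif in that of *B2m*. These are the stretches that hold them, 5′ to 3′ on the strand of the gene, with the matched letters in capitals.
H2-K1: GGGGAAGCCCagggctGGGGATTCCCC
H2-D1: GGGGAAGCCCagggctGGGGATTCCCC
B2m: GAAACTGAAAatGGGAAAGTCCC

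The stretch of *H2-K1* lies at chr17:34137393-34137419 on the minus strand, 141 to 115 bases upstream of the start. That of *H2-D1* lies at chr17:35399852-35399878 on the plus strand, 187 to 161 bases upstream of the RefSeq start, and inside the first exon of a longer GENCODE transcript that starts further up. Both stretches are identical and belong to a run of 47 identical bases. Their capitals mark the broad κB motif at the left and, at the right, a pair of overlapping matches of which the first is also the narrower form. The *B2m* stretch, chr2:121973284-121973306 on the plus strand, begins 139 bases upstream of the start. Its first capitals are the interferon response motif and its last are overlapping κB matches, the narrower form on the minus strand. A match says that the letters are there, and no binding was measured. A window without a match lacks these exact letters, and variants of the motifs were not searched for.

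For the setting of these stretches, the 250 bases before the start of *H2-K1* (chr17:34137279-34137528, minus strand), of *B2m* (chr2:121973173-121973422, plus strand) and, as a member with none of the motifs, of *Psmb10* (chr8:108462293-108462542, minus strand) are shown in the same way.
H2-K1: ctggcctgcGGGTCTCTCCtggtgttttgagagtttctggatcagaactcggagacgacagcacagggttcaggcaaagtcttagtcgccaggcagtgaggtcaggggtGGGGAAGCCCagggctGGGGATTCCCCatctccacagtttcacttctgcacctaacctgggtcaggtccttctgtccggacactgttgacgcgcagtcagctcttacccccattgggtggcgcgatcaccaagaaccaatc
B2m: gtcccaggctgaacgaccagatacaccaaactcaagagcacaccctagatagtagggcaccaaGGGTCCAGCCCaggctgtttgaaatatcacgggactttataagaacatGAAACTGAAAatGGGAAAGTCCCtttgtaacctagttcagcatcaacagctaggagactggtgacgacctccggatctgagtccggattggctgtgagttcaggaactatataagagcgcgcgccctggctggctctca
Psmb10: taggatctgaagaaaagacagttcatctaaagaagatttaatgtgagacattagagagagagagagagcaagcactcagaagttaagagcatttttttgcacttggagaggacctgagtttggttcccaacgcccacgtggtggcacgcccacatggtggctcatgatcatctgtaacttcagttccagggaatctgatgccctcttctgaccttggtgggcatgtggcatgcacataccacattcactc

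The windows of *Tapbp*, *Psmb8* and *Psmb10* hold none of the 3 motifs. The RefSeq starts of *Tapbp* (chr17:34056423) and *Psmb8* (chr17:34335140) lie inside these genes, whose annotated 5′ ends are at 34052844 and 34334666. That of *Psmb9* (34324275) also lies inside its gene (5′ end at 34324709). The bases just before these annotated 5′ ends were not searched. *Psmb9* and *Tap1* are transcribed away from each other, and the 225 bases between their RefSeq starts hold 5 matches to the broad κB motif, some of them overlapping, and none to the other motifs. Both windows contain these same matches. *H2-K1*, *H2-D1* and *B2m*, with the narrower motif, were at least 2-fold higher at 1.5 hr in both columns, and so was *Psmb9*, without it, though below the filter on RPKM. *Psmb8*, with no motif in its window, was 2.08-fold higher at 1.5 hr in the mean of the columns. At 24 hr it was 3.19-fold higher, and at least 2-fold in both columns. The part of the motifs in the levels was not tested.

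The peptide transporter and its loading partner varied less. *Tap1* (chr17:34324498-34334170, plus strand), the first subunit of the transporter, was at 1.33 RPKM in untreated cells, 1.56 RPKM at 1.5 hr, 0.863 RPKM at 6 hr and 1.18 RPKM at 24 hr. Both columns were above the untreated ones at 1.5 hr and below them at 6 and 24 hr, with a fold of 1.17, 0.648 and 0.885. Relative to the median of coding genes its log2 ratio was -0.23 after 1.5 hr, 0.12 after 6 hr and -0.29 after 24 hr, so the sign at 1.5 and 6 hr depends on the scaling.

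*Tap2* (chr17:34340472-34353266, plus strand), the other subunit, was at 1.65 RPKM in untreated cells, 2.32 RPKM at 1.5 hr, 1.86 RPKM at 6 hr and 1.34 RPKM at 24 hr. The fold was 1.41, 1.13 and 0.810 in that order, and no time reached 2-fold. Both TAP subunits act as a pair, and *Tap1* was at 0.808 times the level of *Tap2* in untreated cells, 0.670 after 1.5 hr, 0.465 after 6 hr and 0.883 after 24 hr. The 6 hr value was the lowest of the 4 in both columns.

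*Tapbp* (chr17:34052844-34066235, plus strand) encodes tapasin, which holds empty class I molecules at the transporter. It was the most even member, at 10.5 RPKM in untreated cells, 10.9 RPKM at 1.5 hr, 10.6 RPKM at 6 hr and 9.39 RPKM at 24 hr. The columns of the untreated library overlapped those at 1.5 and 6 hr, and at 24 hr both columns lay below the untreated ones, the higher of them by a margin lost in rounding. In the untreated and the 6 hr library *Tapbp* was second only to *B2m*, and at 1.5 and 24 hr it lay below both heavy chains. Relative to the median of coding genes its log2 ratio was -0.39 after 1.5 hr, 0.76 after 6 hr and -0.27 after 24 hr. *Tap1* and *Tapbp* each have a second entry in the table with nearly the same levels, which was not used here.

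**Figure D2:**
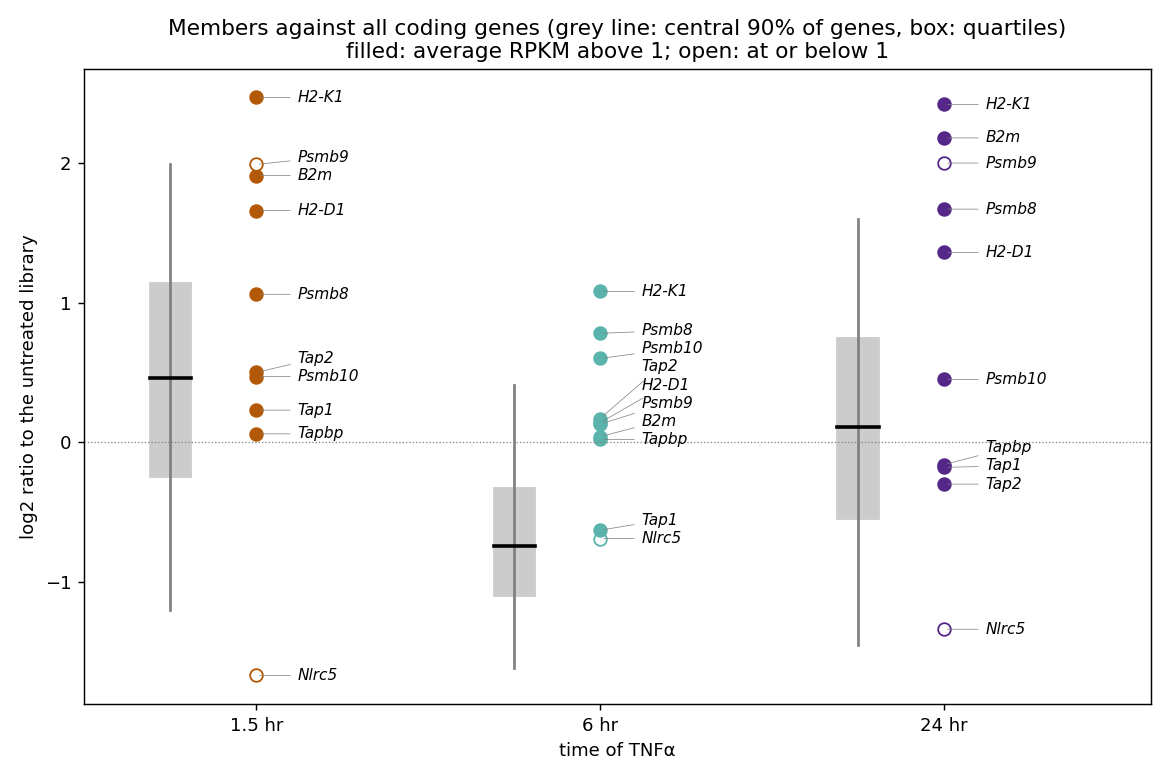
Log2 ratio to the untreated library of each member at 1.5, 6 and 24 hr (filled circles: average RPKM above 1, open: at or below 1), beside the central 90%, quartiles and median of 6542 coding genes in grey. At 6 hr all 10 members lie above the median of coding genes (-0.74), at 1.5 hr 7 and at 24 hr 6 do, and *H2-K1* is the highest each time.

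The immunoproteasome subunits replace the catalytic β subunits of the constitutive proteasome and change which peptides are cut. *Psmb8* (chr17:34334666-34338399, plus strand; β5i) was at 2.23 RPKM in untreated cells, 4.65 RPKM at 1.5 hr, 3.82 RPKM at 6 hr and 7.11 RPKM at 24 hr. Every treated library was above the untreated one in both columns. The fold was 2.08 after 1.5 hr, 1.71 after 6 hr and 3.19 after 24 hr, and at 1.5 hr R1 lay below 2-fold, with a log2 ratio of 0.91, and R2 above it, with 1.20. At 24 hr *Psmb8* stood at place 272 of 6542 coding genes.

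*Psmb9* (chr17:34318933-34324709, minus strand; β1i) was the lowest of the 3 subunits, at 0.116 RPKM in untreated cells, 0.461 RPKM at 1.5 hr, 0.127 RPKM at 6 hr and 0.463 RPKM at 24 hr. Its average RPKM was below 1, so it was not called, although its fold was 3.97 at 1.5 hr and 3.99 at 24 hr. The 6 hr columns, 0.0874 and 0.167 RPKM, lay on either side of the untreated columns, 0.109 and 0.123 RPKM.

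*Psmb10* (chr8:108459628-108462292, minus strand; β2i) was at 4.76 RPKM in untreated cells, 6.59 RPKM at 1.5 hr, 7.23 RPKM at 6 hr and 6.49 RPKM at 24 hr. All treated columns were above both untreated columns, with a fold of 1.38, 1.52 and 1.36, and none reached 2-fold. Relative to the median of coding genes the log2 ratio was 0.01 after 1.5 hr, 1.34 after 6 hr and 0.33 after 24 hr. *Psmb10* was the only member with its highest mean at 6 hr, where its columns, 6.19 and 8.28 RPKM, spanned those at 1.5 and 24 hr.

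Each immunoproteasome subunit can be set against the constitutive subunit that it replaces within the same library. *Psmb8* was at 0.210 times the level of *Psmb5* (β5) in untreated cells, 0.249 after 1.5 hr, 0.634 after 6 hr and 0.478 after 24 hr. *Psmb9* was at 0.00406 times *Psmb6* (β1) in untreated cells, 0.0171 after 1.5 hr, 0.0108 after 6 hr and 0.0190 after 24 hr. For both pairs every treated library had a higher ratio than the untreated one in both columns. *Psmb10* did otherwise, with 0.622 times *Psmb7* (β2) in untreated cells, 0.325 after 1.5 hr, 1.09 after 6 hr and 0.293 after 24 hr. The denominators moved as well. *Psmb7* was at 7.66 RPKM in untreated cells, 20.2 RPKM at 1.5 hr, 6.65 RPKM at 6 hr and 22.1 RPKM at 24 hr. *Psmb5* was at 10.6, 18.7, 6.02 and 14.9 RPKM in the same order, and *Psmb6* at 28.7, 27.0, 11.7 and 24.4 RPKM.

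**Figure D3:**
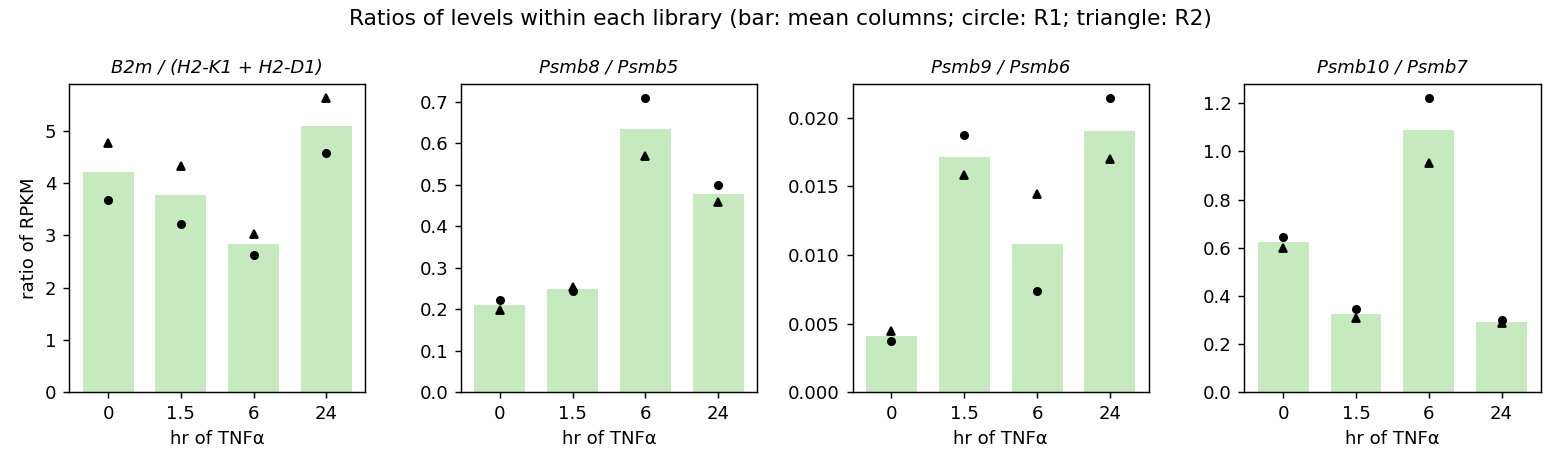
Ratios of RPKM within each library (linear axes from 0) for the light chain over the summed heavy chains and for each immunoproteasome subunit over the constitutive subunit it replaces, with bars for the mean of columns, circles for R1 and triangles for R2. *Psmb8* over *Psmb5* is highest at 6 hr (0.634), while *Psmb10* over *Psmb7* is 0.325 and 0.293 at 1.5 and 24 hr against 0.622 in untreated cells.

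*Nlrc5* (chr8:96996663-97051172, plus strand) encodes the transactivator of class I genes. It was at 0.181 RPKM in untreated cells, 0.0569 RPKM at 1.5 hr, 0.112 RPKM at 6 hr and 0.0715 RPKM at 24 hr. In both columns every treated library was below the untreated one, with a fold of 0.315, 0.620 and 0.396. Its average RPKM was below 1 and it was not called. Relative to the median of coding genes its log2 ratio was -2.12 after 1.5 hr, 0.05 after 6 hr and -1.45 after 24 hr. *Nlrc5* was the lowest member in all 3 treated libraries, though at 6 hr its columns overlapped those of *Psmb9*.

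Over all 10 members the median log2 ratio was 0.78 after 1.5 hr, 0.13 after 6 hr and 0.90 after 24 hr, which is 0.32, 0.88 and 0.79 above the median of coding genes. Members lay above that median in 7 of 10 cases at 1.5 hr, 10 of 10 at 6 hr and 6 of 10 at 24 hr. The range within the pathway was wide, from -1.67 (*Nlrc5*) to 2.47 (*H2-K1*) at 1.5 hr and from -1.34 to 2.42 for the same genes at 24 hr. In untreated cells the order of levels was *B2m*, *Tapbp*, *H2-D1*, *Psmb10*, *H2-K1*, *Psmb8*, *Tap2*, *Tap1*, *Nlrc5* and *Psmb9*. At 1.5 hr it was *B2m*, *H2-K1*, *H2-D1*, *Tapbp*, *Psmb10*, *Psmb8*, *Tap2*, *Tap1*, *Psmb9* and *Nlrc5*, and at 24 hr *Psmb8* and *Psmb10* had changed places. At 6 hr it was *B2m*, *Tapbp*, *H2-K1*, *Psmb10*, *H2-D1*, *Psmb8*, *Tap2*, *Tap1*, *Psmb9* and *Nlrc5*. The columns of neighbours in the order did not overlap in any library, except those of *Psmb9* and *Nlrc5* at 6 hr.

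The genes whose pattern was nearest to the median of the members were sought among 2021 other coding genes with an average RPKM above 5. Likeness was the Euclidean distance over the 3 log2 ratios relative to the median of coding genes, so that 4 libraries enter it. The nearest was *Ptma* at a distance of 0.23, with 52.3 RPKM in untreated cells, 99.8 RPKM at 1.5 hr, 52.4 RPKM at 6 hr and 90.9 RPKM at 24 hr. *Axl* followed at 0.27, *Basp1* at 0.30, and *Ndfip1* and *G3bp1* at 0.34.

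The nonclassical and class I-like genes, which present to other receptors or carry other cargo, were counted from a list of 27 genes, of which 24 are in the table and 12 had an average RPKM above 1. At 1.5 hr 11 of the 12 were at least 2-fold higher, all of them in both columns, and 1 was lower. At 6 hr 1 was higher and 1 lower, and at 24 hr 10 were higher, 6 of them in both columns, and 1 lower. The shares over all coding genes were 29.9%, 1.74% and 16.8% higher and 7.80%, 31.6% and 12.6% lower at 1.5, 6 and 24 hr. Of the 12, 6 passed the filter only through the treated libraries, since they were at or below 1 RPKM in untreated cells. Among the other 6, 5 were higher and 1 lower at 1.5 hr, 0 and 1 at 6 hr, and 5 and 1 at 24 hr. The median log2 ratio of the 12 was 1.53 after 1.5 hr, 0.26 after 6 hr and 1.13 after 24 hr. *H2-T10* was at 1.27 RPKM in untreated cells, 3.65 RPKM at 1.5 hr, 1.81 RPKM at 6 hr and 5.22 RPKM at 24 hr. *H2-Q7* was at 0.933, 3.0, 1.28 and 2.23 RPKM, and *H2-Q8* at 0.549, 1.65, 1.49 and 1.19 RPKM. The lower gene was *Fcgrt*, the heavy chain of the neonatal Fc receptor, which also pairs with *B2m*, at 15.5 RPKM in untreated cells, 5.75 RPKM at 1.5 hr, 5.78 RPKM at 6 hr and 3.16 RPKM at 24 hr.

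Several of these genes are near copies of another gene, and reads can be shared between them. Of all stretches of 50 bases in GENCODE coding transcripts, 98.4% of those of *H2-T9*, 40.6% of those of *H2-T22*, 40.5% of those of *H2-T10* and 24.1% of those of *H2-Q7* also occur in a transcript of another gene. It was 22.7% for *H2-Q6*, lower for *H2-T23* (14.8%), *H2-Bl* (9.06%), *H2-Q10* (6.83%) and *H2-Q2* (6.40%), and 0 for *Fcgrt*. No share was obtained for *H2-Q1* and *H2-Q8*, which are also among the genes counted. For the classical chains the share was 7.29% (*H2-K1*) and 12.8% (*H2-D1*), and for *B2m*, *Psmb8*, *Psmb9* and *Psmb10* it was 0. How the authors' script treated reads with several positions is not given in the sources used here, so the separate levels of the genes with large shares are uncertain, and a count over them is not one of independent genes.

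**Figure D4:**
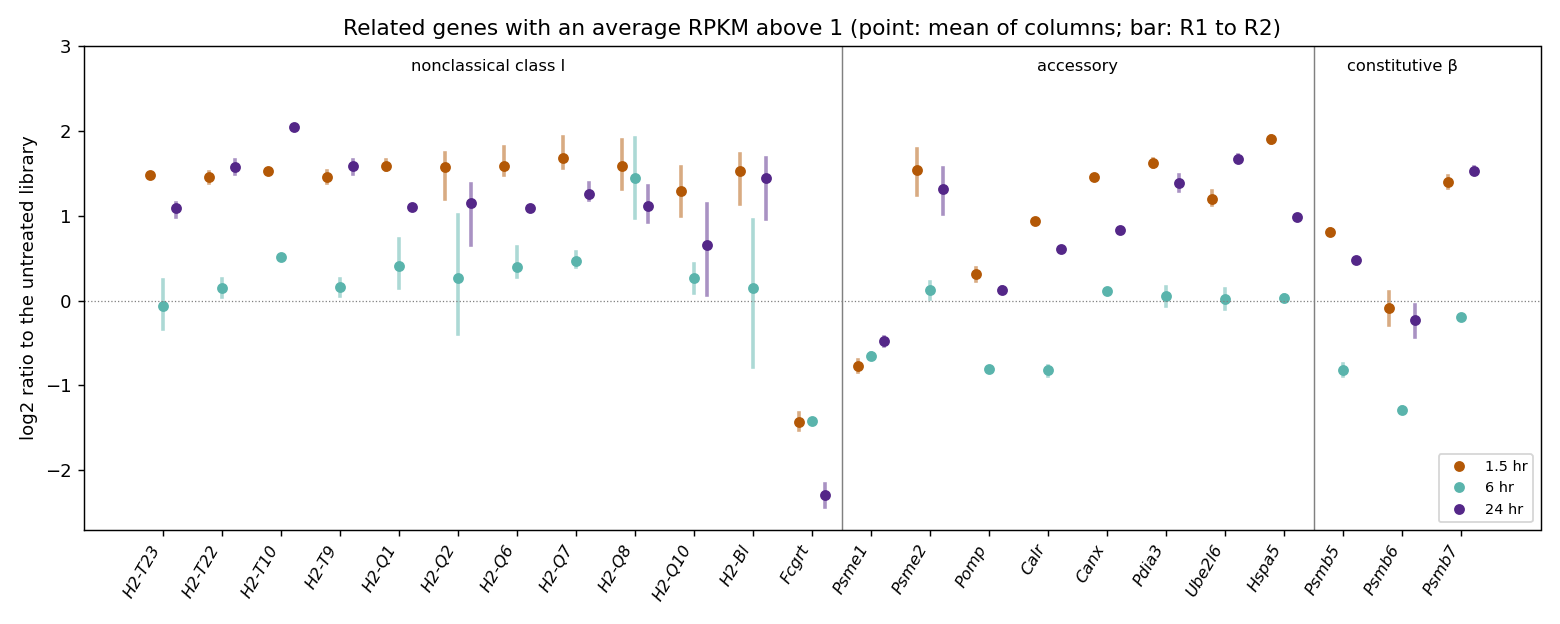
Log2 ratio to the untreated library at 1.5, 6 and 24 hr for nonclassical class I genes, accessory genes and constitutive β subunits with an average RPKM above 1 (points: mean of columns, bars: span from R1 to R2). Of 12 nonclassical genes 11 lie at or above 1 at 1.5 hr and *Fcgrt* lies below -1 at each time, and none of the 8 accessory genes reaches 1 at 6 hr. Of all coding genes 29.9% lie at or above 1 at 1.5 hr and 1.74% at 6 hr.

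Accessory genes of peptide supply, folding and loading were counted from a list of 12, of which 8 had an average RPKM above 1. At 1.5 hr 5 of the 8 were at least 2-fold higher, at 6 hr 0 and at 24 hr 3, and none was lower. Among all coding genes 29.9%, 1.74% and 16.8% were higher and 7.80%, 31.6% and 12.6% lower at these times. *Pdia3*, the thiol oxidoreductase of the loading complex, was at 7.28 RPKM in untreated cells, 22.3 RPKM at 1.5 hr, 7.54 RPKM at 6 hr and 19.0 RPKM at 24 hr. *Hspa5*, an endoplasmic reticulum chaperone, was at 7.29, 27.2, 7.46 and 14.4 RPKM. *Ube2l6*, the conjugating enzyme for ISG15, was at 1.09, 2.5, 1.1 and 3.47 RPKM. *Psme1* and *Psme2* encode the α and β subunits of the PA28 proteasome activator, and at 1.5 and 24 hr they changed in opposite directions. *Psme2* was at 5.18, 15, 5.63 and 12.8 RPKM and *Psme1* at 17.9, 10.5, 11.4 and 12.8 RPKM, so that *Psme2* over *Psme1* was 0.290 in untreated cells, 1.43 after 1.5 hr, 0.494 after 6 hr and 1.00 after 24 hr.

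Factors that act on class I promoters were read in the same libraries. Of 5 NF-κB subunit genes 4 had an average RPKM above 1, and all 4 were at least 2-fold higher at 1.5 hr, with 2 at 6 hr and 2 at 24 hr, of which 1 in both columns, against 29.9%, 1.74% and 16.8% of coding genes. *Relb* was at 1.65, 8.24, 3.86 and 4.76 RPKM at 0, 1.5, 6 and 24 hr, *Nfkb1* at 1.35, 6.35, 1.75 and 2.47 RPKM and *Rela* at 4.72, 9.87, 4.60 and 6.30 RPKM. *Nfkb2*, at 5.01 RPKM before treatment, had log2 ratios of 1.64, 1.08 and 1.01 at the later times. Of the interferon regulatory factors, *Irf1* and *Irf2* are given. *Irf1* was at 1.33 RPKM in untreated cells, 15.1 RPKM at 1.5 hr, 4.57 RPKM at 6 hr and 3.66 RPKM at 24 hr, and was at least 2-fold higher at every time. *Irf2* was at 1.04, 2.16, 0.906 and 1.56 RPKM, at least 2-fold higher at 1.5 hr alone. *Irf3*, *Irf7* and *Irf9* also passed the filter and did not differ 2-fold at any time. Their folds were 0.743, 1.06 and 1.07 at 1.5 hr, 0.654, 0.741 and 0.572 at 6 hr, and 0.713, 1.70 and 0.972 at 24 hr. The shares of coding genes given above apply here as well.

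Of 7 genes for the RFX, CREB and NF-Y factors that *Nlrc5* works with, 3 passed the filter. *Nfya* was at 0.956, 2.29, 0.509 and 1.77 RPKM and was at least 2-fold higher at 1.5 hr, against 29.9% of coding genes. It passed the filter only through the treated libraries. *Nfyc* was at 1.93, 3.71, 0.777 and 2.65 RPKM and was at least 2-fold lower at 6 hr, against 31.6%. The remaining one, *Rfxank*, was at 2.35, 1.46, 1.35 and 1.58 RPKM, below its untreated level at each time and never by 2-fold. Of 18 interferon genes 12 were listed at 0 in all 4 libraries, among them *Ifnb1* and *Ifng*, and none had an average RPKM above 1.

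Genes that lie near the class I genes on chromosome 17 but serve other functions were also counted. Of 16 such neighbours that were measured, 14 had an average RPKM above 1, of which 1 was at least 2-fold higher and 5 lower at 1.5 hr, 0 and 0 at 6 hr, and 1 and 4 at 24 hr. Over coding genes the shares were 29.9% higher and 7.80% lower at 1.5 hr, 1.74% and 31.6% at 6 hr, and 16.8% and 12.6% at 24 hr. *Rgl2* was at 12.9, 3.54, 9.82 and 3.75 RPKM at 0, 1.5, 6 and 24 hr, *Rxrb* at 8.09, 3.22, 5.31 and 3.05 RPKM, and the ribosomal protein gene *Rps18* at 112, 337, 69.3 and 258 RPKM. *Cuta*, at 57.7 RPKM before treatment, had log2 ratios of -1.53, -0.94 and -1.61. The median log2 ratio of the 14 was -0.60 at 1.5 hr, against 0.46 for all coding genes.

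H3K4me3, a histone mark of active and poised promoters, was read in untreated MEFs only, so it describes the genes before TNFα. A peak lay within 1 kb of the annotated 5′ end of 7 of the 10 members. Among the 8 members with an average RPKM above 1 it was 7 (87.5%), about as many as the 88.9% of 6414 coding genes with an average RPKM above 1 and an annotated start. The 7 were *H2-K1*, *H2-D1*, *B2m*, *Tap2*, *Tapbp*, *Psmb8* and *Psmb10*. In 6 of them the 5′ end lay inside the peak, and that of *Tap2* lay 476 bases before it.

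The peaks of *B2m* (chr2:121972769-121977028, 1509 tags) and *Psmb10* (chr8:108459726-108463116, 1517 tags) held the most tags. Those of the other 5 held from 411 tags at *H2-K1* (chr17:34135918-34137876) to 745 at *Tap2* (chr17:34340948-34343373). Among 5331 peaks at coding genes with an average RPKM above 1, 2.25% had fewer tags than the peak of *H2-K1* and 2.74% fewer than that of *H2-D1* (436 tags), against 64.4% for *B2m* and 65.0% for *Psmb10*. Of the same peaks 4.52% had fewer tags than that of *Tapbp* (529 tags), 5.20% than that of *Psmb8* (562 tags) and 12.1% than that of *Tap2*. The median of that set was 1284 tags, and its median fold enrichment was 50.1. By fold enrichment the order of the members was another, with *Tap2* (65.1) and *Psmb8* (46.7) highest. *B2m* (39.1), *H2-K1* (38.8), *Psmb10* (36.9), *Tapbp* (33.5) and *H2-D1* (20.7) followed, all below that median. In transcripts, the share of 50-base stretches that also occur in another gene was 1.13% for *Tapbp*, 0 for *Psmb8* and 0.708% for *Tap2*. Tags that match several class I genes may be counted differently from others, and their part in the low counts was not tested.

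The shared promoter of *Psmb9* and *Tap1* had no peak, and the nearest, that of *Psmb8*, began 9339 bases downstream of the *Tap1* start. *Nlrc5* had none either, and the nearest peak lay 37.6 kb upstream of its annotated 5′ end and held the start of another gene. *Psmb9* and *Nlrc5* were the lowest members in untreated cells, and *Tap1* the next above them at 1.33 RPKM, so the 3 members without a peak were the 3 with the lowest untreated levels. The sequences of *H2-K1*, *B2m* and *Psmb10* shown above lie inside the peaks of these genes.

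**Figure D5:**
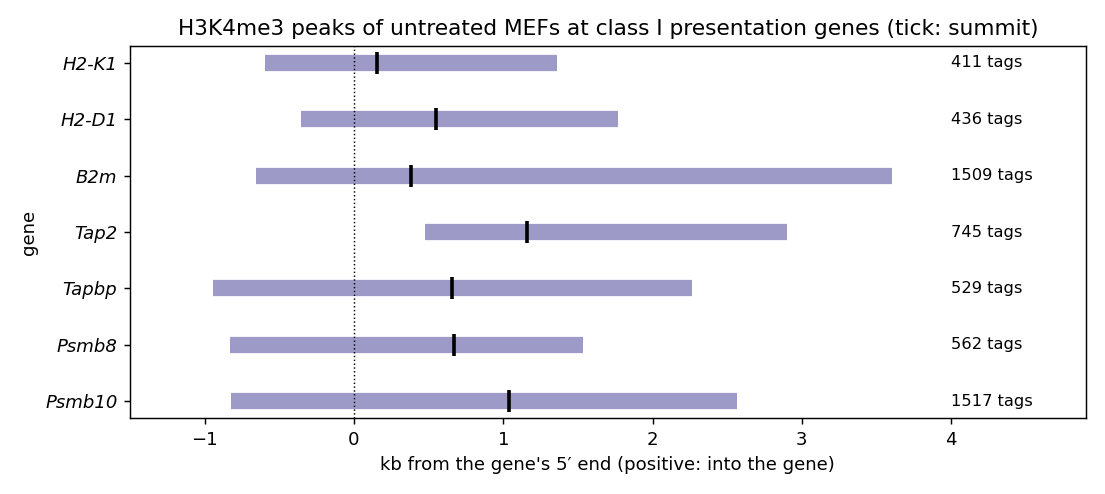
Extent of the H3K4me3 peak in untreated MEFs for the 7 members with a peak within 1 kb, in kb from the gene's annotated 5′ end (dotted line, positive values into the gene), with the summit as a tick and the number of tags at the right. In each of the 7 the summit lies inside the gene, and the peaks of *B2m* and *Psmb10* hold 1509 and 1517 tags.

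The label of the cells was compared with marker genes. All 8 fibroblast markers were above 0 in every library, with *Col1a1* at 514 RPKM in untreated cells, 278 RPKM at 1.5 hr, 236 RPKM at 6 hr and 142 RPKM at 24 hr. Others varied as well, *Vim* being at 60.4, 202, 55.8 and 170 RPKM, *Dcn* at 2.68, 3.83, 1.72 and 7.63 RPKM and *Pdgfrb* at 14.5, 11.8, 5.27 and 6.43 RPKM. The summed level of 4 lymphocyte markers was at most 0.132 RPKM, with *Cd3e* listed at 0, that of 4 endothelial markers at most 0.0588 RPKM and that of 4 epithelial markers at most 0.566 RPKM, with *Epcam* listed at 0.

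Leukocyte and macrophage markers were present, and some moved with the class I genes. All 8 were above 0 in every library, and their summed level was 41.1 RPKM in untreated cells, 194 RPKM at 1.5 hr, 38.2 RPKM at 6 hr and 95 RPKM at 24 hr. Most of this was *Lyz2*, with 26.4, 171, 31.5 and 84.0 RPKM, and without it the sums lay between 6.76 RPKM (6 hr) and 22.3 RPKM (1.5 hr). *Cd14* was at 0.732, 6.02, 2.08 and 4.52 RPKM, whereas *Csf1r* was at 3.44, 3.35, 1.05 and 1.45 RPKM and *Aif1* at 2.51, 1.38, 0.768 and 0.267 RPKM. *Ptprc*, which marks all leukocytes, was at 0.156, 0.359, 0.101 and 0.194 RPKM. In bulk RNA fewer cells of a type and less RNA per cell cannot be told apart, and the part of these cells in the class I levels was not tested.

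Of 11 class II genes, which serve professional antigen-presenting cells, 1 had an average RPKM above 1. This was *Cd74*, the invariant chain, at 0.579 RPKM in untreated cells, 1.53 RPKM at 1.5 hr, 1.87 RPKM at 6 hr and 1.86 RPKM at 24 hr. It passed the filter only through the treated libraries, in which it was high. *H2-Aa* and *H2-Eb2* were listed at 0 in all libraries, and *Ciita*, the class II transactivator, was at 0.0798, 0.0281, 0.0159 and 0.00546 RPKM.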

How the data were processed

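RNA from MEFs untreated or given TNFα was sequenced by the authors as directional paired-end libraries, mapped to mm9 with TopHat and turned into RPKM for each RefSeq transcript by a script of their own. The deposited RPKM values were a median of 85.6 times those of the study's own gene table (5167 values, 83.4 to 89.9 in single libraries) and were divided by 85.6. ChIP-seq reads were mapped with Bowtie and peaks called with MACS on 1 ChIP and 1 input library. The deposited peak list holds for each peak its count of tags, its fold enrichment and, in percent, its FDR. The authors' thresholds for peaks are not given in the sources used here. One field of the 24 hr RNA-seq label holds a ChIP text, and its other fields are those of RNA-seq.

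The entry with the highest mean was used for each gene, with no pseudocount. The 10 members, the other gene lists and the motifs were chosen with earlier results of these data known. From each list, up to 4 genes with the largest change among those at least 2-fold changed in both columns were named, and *Psmb5*, *Psmb6* and *Psmb7* always. A gene that this rule also chose, and the counts of its list, are not reported here. *Psme1*, *Ptprc*, *Ciita*, *Irf3*, *Irf7*, *Irf9*, *Rfxank* and the genes listed at 0 were named after their values were seen. So were *H2-T9*, *H2-T22* and the other nonclassical genes named for their shared sequence or for the lack of a share. Gene starts came from GENCODE M1 (mm9), and promoter sequences from RefSeq (GRCm38.p6), placed on mm9 by exact match. Calls after each median of ratios and after the trimmed mean were required to recover known changes in simulated data. Calls on the values as deposited were not held to this. In the simulation few genes changed, as many up as down, which was not so in these libraries. Python 3.11.15, numpy 2.4.6 and pandas were used. The alternatives were 4 scalings, pseudocounts of 0.1 and 1 RPKM, summed entries, each column alone, and other thresholds for levels and peaks.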

Additional observations from a re-analysis of the deposited data

How the results depend on the processing

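No paired analysis was possible because each time has 1 library and the groups share fewer than 2 replicate numbers, and for the same reason no replicate could be left out. A log2 ratio counted as moved beyond the distance of R1 or R2 alone from their mean, whichever was larger, so the columns alone cannot move it, and a count when it changed by over 1.5 times.

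The counts of members at least 2-fold higher at 1.5 hr (4) and 24 hr (4) stayed within 3 and 5 under every alternative run. The count at 6 hr (1) was 4 after scaling to the summed values, 3 after each median of ratios and after the trimmed mean, 3 at a 1.5-fold threshold, and 0 at a 3-fold threshold or with a pseudocount of 1 RPKM. The median log2 ratio of the members at 1.5 hr (0.78) was 0.53 after scaling to the sum, 0.39 with the median of ratios over all entries, the trimmed mean or a pseudocount of 1 RPKM, and 0.35 with the median of ratios over coding entries. At 6 hr (0.13) it was 0.96, 0.88, 0.88 and 0.87 under the sum, the median over all entries, the trimmed mean and the median over coding entries, and 0.07 with a pseudocount of 1 RPKM. At 24 hr (0.90) it was 0.81 with the median over coding entries and 0.38 with a pseudocount of 1 RPKM. By construction a scaling shifts all genes of a library together, and a pseudocount shrinks the ratios of low genes most. No log2 ratio of a called member changed sign. Among all 30 member ratios, 4 changed sign under each scaling, 2 in R1 alone and 1 in R2 alone, all of them of uncalled values.

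The count of members with an H3K4me3 peak (7) was 2 (*Tap2* and *Psmb8*) with peaks of a fold enrichment of at least 40. The median fold enrichment of peaks at coding genes with an average RPKM above 1 was 50.1. The share of coding genes with a peak at that threshold was not computed. The count was 6 or 7 under the other definitions, of which the use of any annotated transcript start was chosen after seeing the data. A filter on the untreated level in place of the average, also chosen after seeing the data, left the counts at 4, 1 and 4.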
